A study of Mus musculus with 6 samples.

Results

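Bone morphogenetic protein (BMP) signaling was read in infarct tissue of the mouse heart through 9 genes, taken by name from the 36047 genes to which the deposited transcripts could be joined. They are the ligands Bmp2, Bmp4, Bmp6 and Bmp10, the type II receptor Bmpr2, the secreted antagonist Grem1, and the target genes Id1, Id2 and Id3. C57BL6 mice, labelled as 12 weeks old, underwent ischemia/reperfusion (I/R) of the left anterior descending artery, and the infarct area was taken after 48 h. Of these animals 3 received LGK-974 by oral gavage and 3 received its solvent DMSO, both in citrate buffer. LGK-974 inhibits Porcupine, the enzyme that attaches the lipid which Wnt proteins need for their secretion. The question addressed to these genes is whether their RNA differs between infarcts with and without blocked Wnt secretion.

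BMPs are secreted growth factors that bind a pair of type I and type II receptors on the cell surface. The activated type I receptor phosphorylates SMAD1, SMAD5 and SMAD9, which enter the nucleus with SMAD4 and switch on the Id genes, the most general transcriptional response to BMPs. ID proteins lack a DNA-binding domain and keep basic helix-loop-helix factors from binding DNA. In the heart, BMP2 and BMP4 act on cushion and myocardial development, BMP10 is made by myocytes of the atria, BMP6 in the liver controls iron, and loss of BMPR2 causes pulmonary arterial hypertension. Gremlin-1 binds BMP2 and BMP4 and blocks their access to receptors.

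The libraries held 41579787 to 80398211 estimated counts. Cardiomyocyte markers were abundant in each (12 of 12 tested, summed level 42768 to 66684 CPM, counts scaled to library size with TMM factors of edgeR), and no marker gene of the 9 cell type lists was at 0 in all libraries. One library stood apart. A set of 1501 olfactory, vomeronasal and bitter taste receptor genes was read, most of which are not expected to be expressed in heart tissue. Of these, 99.3% had counts in DMSO replicate 1 and 60.4 to 88.5% in the other libraries. Their median count per kb of transcript was 38.1 in DMSO replicate 1 and 3.68 to 14.7 in the others. For members and for the pathway genes named by the smallest p-values whose log2 fold change moved by over 1.5 times or whose call changed when this library was left out, both values are given. Since the tissue was sequenced in bulk, fewer cells of a type and less RNA per cell cannot be told apart. All differences below are LGK-974 against DMSO, from edgeR's quasi-likelihood test over 20094 genes with Benjamini-Hochberg adjustment. For one value in 3 mice per group, the smallest p-value of the exact permutation test is 0.1.

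For Bmp2, Id2 and Id3 the lowest LGK-974 value exceeded the highest DMSO value, while Id1, Bmp4, Bmp6 and Bmpr2 overlapped between the groups. Grem1 and Bmp10 were near 0 apart from a few libraries. Of the 9 genes 8 had enough counts to be tested, and Bmp10 had not. An adjusted p-value under 0.05 was reached by 0 of the 8, as by 0 of all tested genes (0.0%) in edgeR, where 2699 genes had an unadjusted p-value under 0.05. At an unadjusted p-value under 0.05 there was 1 of the 8, Id2, and 13.4% of all tested genes passed this limit, 6.26% of them higher and 7.18% lower with LGK-974. On the same filtered genes DESeq2 gave 0 members at an adjusted p-value under 0.05, where 337 genes in all passed (1.68%) and Grem1 was given none, and 1, again Id2, at an unadjusted one (17.5% of all genes). The groups were apart in 3 of the 8, all higher with LGK-974, where this held in 18.0% of all tested genes (10.7% higher and 7.27% lower). The median log2 fold change of the 8 was 0.07, with 4 above and 4 below 0, and the median of all tested genes was −0.13. The share of members at an unadjusted p-value under 0.05 was close to that of all genes, and 3 of 8 is too few to set the share of separated members apart from it.

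**Figure D1:**
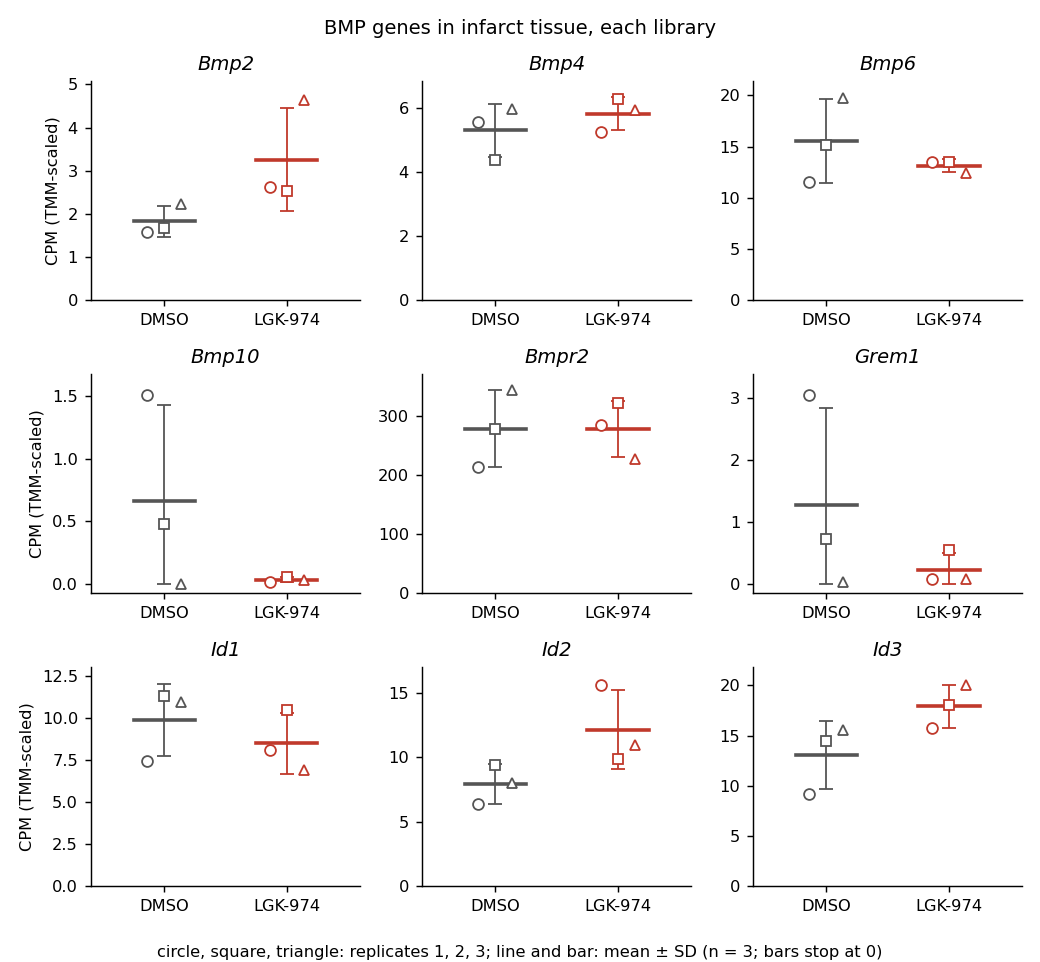
TMM-scaled CPM (y axis, linear) of the 9 BMP genes in each library, with DMSO in grey and LGK-974 in red. Points are single mice and lines with bars the mean ± SD (n = 3), with bars cut at 0. In Bmp2, Id2 and Id3 all LGK-974 points lie above all DMSO points, and in Bmp10 and Grem1 the highest point is DMSO replicate 1.

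The levels of different genes are compared here only in TPM, which is scaled to transcript length. Bmpr2 had the highest mean over the 6 libraries, at 22.6 TPM, followed by Id3 at 15.3, Id1 at 11.5 and Id2 at 9.53. Among the ligands Bmp4 was at 6.12 TPM, Bmp6 at 5.10, Bmp2 at 0.815 and Bmp10 at 0.0589, and the antagonist Grem1 was at 0.137. The ranges over the libraries overlapped between all neighbours in this order except Bmp6 (2.86 to 7.49 TPM) and Bmp2 (0.308 to 2.20 TPM). The receptor and the Id genes thus lay above the ligands on this scale in the mean. The range of Bmpr2 (13.5 to 30.7 TPM) lay above those of all 4 ligands, of which Bmp4 reached highest, at 11.6. Of this value, in DMSO replicate 3, 7.67 TPM came from a retained-intron transcript of 258 bases with 28.2 estimated counts. On coding transcripts alone Bmp4 lay below Bmp6 in the mean, at 3.47 ± 1.41 TPM with LGK-974 and 2.35 ± 0.549 with DMSO. Bmp6 was then at 4.26 ± 1.45 and 4.02 ± 1.44 TPM (SD, n = 3 each).

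Bmp2 encodes the ligand of the type I receptors BMPR1A and BMPR1B. It lies on chromosome 2 of GRCm38 from 133552159 to 133562885, on the plus strand, as a protein-coding gene with 1 transcript and no exon shared with another gene. Its estimated counts were 222, 136 and 296 in LGK-974 replicates 1, 2 and 3 and 63, 81 and 91 in DMSO replicates 1, 2 and 3. On the CPM scale these were 2.62, 2.54 and 4.63 with LGK-974 and 1.58, 1.68 and 2.24 with DMSO. LGK-974 replicate 3 was the highest, and the lowest LGK-974 mouse lay just above the highest DMSO mouse. The mean was 3.26 ± 1.19 CPM (SD, n = 3) against 1.83 ± 0.353 (SD, n = 3), 1.78-fold, with a 95% interval of the fold from 0.966 to 3.28. The log2 fold change was 0.83 (standard error 0.381, adjusted p = 0.369 by edgeR). It was 0.75 without DMSO replicate 1, 0.56 without LGK-974 replicate 3 and 1.11 without DMSO replicate 3, the only mouse without which its unadjusted p-value was under 0.05. Per kb of transcript Bmp2 reached 0.492 times the median of the sensory receptor genes in DMSO replicate 1 and 1.64 times in DMSO replicate 2, but 4.82 to 23.9 times in the other libraries. With this median subtracted as a background the log2 fold change was 1.73 (adjusted p = 0.522 by edgeR, where the alternatives ran from 0.186 to 0.773). Bmp2 lies below the subtracted median in DMSO replicate 1 and is set to 0 there, so this fold is not a measured one.

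Bmp4 and Bmp6 did not separate the groups. Bmp4, on the minus strand of chromosome 14 from 46383520 to 46390669, was at 5.25, 6.29 and 5.95 CPM with LGK-974 and at 5.55, 4.39 and 5.97 with DMSO. The means were 5.83 ± 0.528 and 5.30 ± 0.821 (SD, n = 3 each) and the log2 fold change was 0.14 (standard error 0.223, 95% interval −0.38 to 0.65, adjusted p = 0.767 by edgeR). Its coding transcripts held 82.6 to 100% of the gene's counts, while a retained-intron transcript of 258 bases took 0 to 65.9% of its TPM. On the coding transcripts alone the LGK-974 mean of Bmp4 was 5.53 ± 0.525 CPM and the DMSO mean 4.83 ± 0.396 (SD, n = 3 each), again with overlap. On counts scaled from TPM, the log2 fold change was −0.25. On the counts themselves, with one mouse left out, it ran from 0.0045 (without DMSO replicate 2) to 0.35 (without DMSO replicate 3). The exons of Bmp4 share 89 bases with Gm15217 on the other strand.

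Bmp6 lies on chromosome 13 from 38345107 to 38500302, plus strand, and shares 224 exon bases with Txndc5 on the other strand. Bmp6 was at 13.5, 13.5 and 12.4 CPM with LGK-974 and at 11.6, 15.2 and 19.8 with DMSO. The LGK-974 mice lay close together, within the range of the DMSO mice. The means were 13.2 ± 0.610 and 15.5 ± 4.10 CPM (SD, n = 3 each), and the log2 fold change was −0.24 (standard error 0.212, 95% interval −0.73 to 0.25, adjusted p = 0.573 by edgeR). Without DMSO replicate 1 all LGK-974 mice were below both remaining DMSO mice, with a log2 fold change of −0.40, and without DMSO replicate 3 it was 0.08.

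The counts of Bmp2 were also set against those of other ligands within each library, a ratio that no scaling of libraries can change. These ratios were chosen after the values above were seen and restate them, so they are given without a test. The ratio of Bmp2 to Bmp6 counts was 0.193, 0.188 and 0.372 with LGK-974 and 0.137, 0.110 and 0.113 with DMSO. All LGK-974 libraries lay above all DMSO libraries, by 0.998 on the log2 scale. The ratio of Bmp2 to Bmp4 was 0.498, 0.403 and 0.779 against 0.286, 0.381 and 0.374, apart as well, with a difference of 0.65.

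Bmp10 lies on chromosome 6 from 87428994 to 87437677. Its counts were 1, 3 and 2 with LGK-974 and 60, 23 and 0 with DMSO. The only libraries with more than a few counts were DMSO replicates 1 and 2, which also had the highest medians per kb of the sensory receptor genes. LGK-974 replicate 1 had nearly the same median as DMSO replicate 2, 13.7 and 14.7 per kb, with 1 and 23 counts of Bmp10. In all 6 libraries Bmp10 lay below that median, at 0 to 0.366 times its value. The part of this signal in the counts of Bmp10 was not tested. Of 6 listed markers of atrial myocytes, the known source of BMP10, the light chain Myl7 had 0 to 17 counts, sarcolipin, Sln, 0 to 14 and Myl4 14 to 99, while Dkk3 (94 to 351), Nr2f1 (161 to 352) and Kcnj3 (1183 to 3000) were detected in every library. Kcnj3 made up most of their summed level, which was 26.7 to 58.7 CPM with LGK-974 and 54.8 to 80.7 with DMSO. Bmp10 was too low for the filter on counts, and no fold is given. Without that filter its adjusted p-value was 0.251 by edgeR, and DESeq2 gave 0.149.

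Bmpr2 encodes the type II receptor shared by most BMPs. It lies on chromosome 1 from 59763400 to 59879014, plus strand, and was the most abundant of the 9 genes. Its level was 285, 322 and 227 CPM with LGK-974 and 214, 278 and 344 with DMSO. The means were 278 ± 48.0 and 279 ± 64.9 CPM (SD, n = 3 each). The fold of 0.997 had a 95% interval from 0.677 to 1.47 (adjusted p = 0.996 by edgeR), so a change of less than about that size in either direction was not detectable with these mice. Without DMSO replicate 1 its log2 fold change was −0.15. The single coding transcript of Bmpr2 held 76.8% of its TPM in DMSO replicate 1 and at least 90.4% in the other libraries, the rest being retained-intron transcripts.

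Grem1, on the minus strand of chromosome 2 from 113746164 to 113758646, had 5.99, 29.0 and 4.75 estimated counts with LGK-974 and 121, 35.4 and 1.39 with DMSO. On the CPM scale it was at 0.0707, 0.541 and 0.0783 with LGK-974 and at 3.04, 0.724 and 0.0246 with DMSO. Its highest value was that of DMSO replicate 1 and its lowest that of DMSO replicate 3, so the LGK-974 mice lay within the DMSO range. The log2 fold change of −2.46 had a standard error of 1.49 and a 95% interval from −5.91 to 0.99 (adjusted p = 0.436 by edgeR). Without DMSO replicate 1, DMSO replicate 2 or LGK-974 replicate 2 it no longer had enough counts to be tested. Without DMSO replicate 3 it was −2.90, with an unadjusted p-value under 0.05. Per kb, Grem1 lay at 0.0929 to 1.37 times the median of the sensory receptor genes, above it only in LGK-974 replicate 2.

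**Figure D2:**
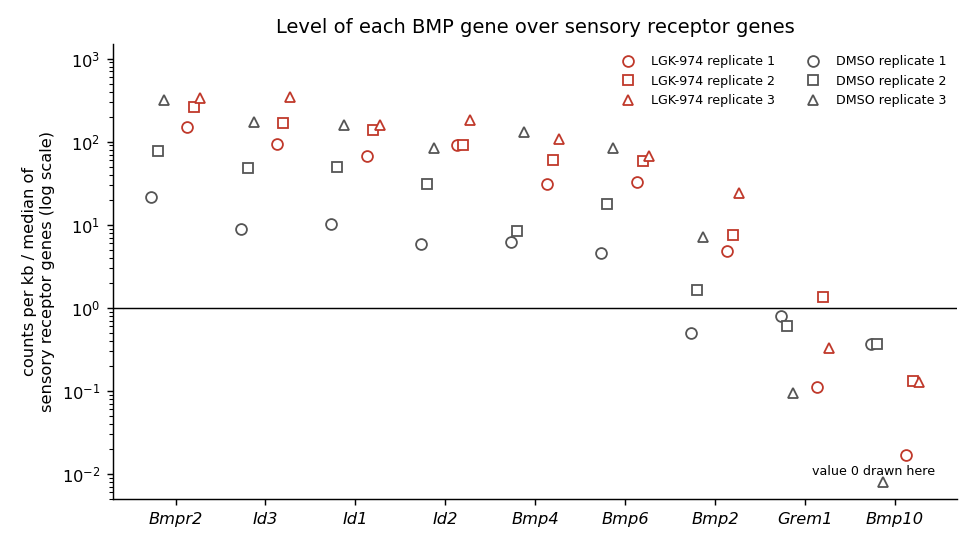
Counts per kb of transcript of each BMP gene, divided by the median of 1501 olfactory, vomeronasal and taste receptor genes of the same library (y axis, log scale, with a line at 1 and the value of 0 drawn at the bottom). Red points are LGK-974 and grey points DMSO libraries. Bmp10 lies below the line in every library, Grem1 in all but LGK-974 replicate 2, Bmp2 only in DMSO replicate 1, and the other 6 genes above it in all libraries.

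The Id genes are read as the transcriptional response to BMP receptors, although other signals also act on them. The stretch before the RefSeq start is shown for Id2 and Id3, the Id genes that were higher with LGK-974, because SMAD proteins are known to bind the letters GGCGCC and CAGAC, the latter also read as GTCTG on the other strand. RefSeq promoters (GRCm38.p6) were found for 7 of the 9 genes, and the 250 bases before each start were searched. Bmp2 and Id1 had no entry and were not searched. The RefSeq start of Id2, at base 25096092 of chromosome 12, is that of a GENCODE transcript of Id2, but another starts upstream at 25097140, and its exons cover 161 of the 250 bases. The RefSeq start of Id3, at base 136143822 of chromosome 4, lies inside the first exon of a GENCODE transcript of Id3, which starts at 136143497, so that the whole window is exonic in GENCODE. Printed are therefore the 89 bases at the far end of the Id2 window (chr12:25096254-25096342, minus strand). No GENCODE exon of Id2 covers them, but they lie within the Id2 gene, downstream of the start at 25097140. For Id3, 25 bases around each match are printed (chr4:136143645-136143669 and chr4:136143744-136143768, plus strand). The matches are in capitals.
Id2: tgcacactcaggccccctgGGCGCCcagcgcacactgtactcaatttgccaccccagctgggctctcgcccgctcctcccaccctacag
Id3, first match: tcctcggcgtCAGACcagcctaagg
Id3, next match: acccttggcgGTCTGttttgaataa
GGCGCC starts 231 bases before the RefSeq start of Id2, and CAGAC and GTCTG start 167 and 68 bases before that of Id3, with no overlap between matches. GGCGCC occurs in 9.59% and CAGAC or GTCTG in 42.2% of all 32851 RefSeq promoter windows of this length. GGCGCC was also found before Bmpr2 and Grem1 and CAGAC before Bmp6 and Grem1, genes whose groups overlapped. These matches describe the letters only.

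Id2 had the smallest p-value of the 8 tested genes. It lies on chromosome 12 from 25093799 to 25097140, minus strand. Id2 was at 15.6, 9.85 and 11.0 CPM with LGK-974 and at 6.36, 9.41 and 8.03 with DMSO. LGK-974 replicate 1 was the highest, and the lowest LGK-974 mouse was only slightly above the highest DMSO mouse. The mean was 12.2 ± 3.06 CPM against 7.93 ± 1.53 (SD, n = 3 each), 1.53-fold with a 95% interval from 1.03 to 2.27. The log2 fold change of 0.62 (standard error 0.244) had an unadjusted p-value of 0.0366 and did not pass adjustment (adjusted p = 0.368 by edgeR). It was 0.38 without LGK-974 replicate 1, 0.50 without DMSO replicate 1 and 0.60 with the replicate number as a block, and in these fits its unadjusted p-value was above 0.05.

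Id3 lies on chromosome 4 from 136143497 to 136145755, plus strand. Id3 was at 15.7, 18.1 and 20.0 CPM with LGK-974 and at 9.15, 14.5 and 15.6 with DMSO. The lowest LGK-974 and the highest DMSO mouse were nearly equal, and DMSO replicate 1 was the farthest below. The mean was 17.9 ± 2.15 CPM against 13.1 ± 3.43 (SD, n = 3 each), 1.37-fold with a 95% interval from 0.953 to 1.98 (log2 fold change 0.46, standard error 0.227, adjusted p = 0.379 by edgeR). Without DMSO replicate 1 the log2 fold change was 0.27 and without DMSO replicate 3 it was 0.70. With the replicate block it was 0.49, and in these last 2 fits its unadjusted p-value was under 0.05.

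Id1, on chromosome 2 from 152736251 to 152737410, plus strand, was the lowest of the member Id genes with LGK-974 relative to DMSO. It was at 8.07, 10.5 and 6.91 CPM with LGK-974 and at 7.41, 11.3 and 10.9 with DMSO. The groups overlapped, with means of 8.48 ± 1.82 and 9.88 ± 2.14 CPM (SD, n = 3 each). The log2 fold change was −0.22 (standard error 0.245, 95% interval −0.79 to 0.35, adjusted p = 0.653 by edgeR), and without DMSO replicate 1 it was −0.37 with all LGK-974 mice below both DMSO mice. Without LGK-974 replicate 3 and without DMSO replicate 3 it was −0.04 in both fits.

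The Id genes were also set against each other within each library, again chosen after the values above were seen and given without a test. The ratio of Id2 to Id1 counts was 1.94, 0.941 and 1.59 with LGK-974 and 0.858, 0.833 and 0.735 with DMSO. That of Id3 to Id1 was 1.95, 1.73 and 2.90 against 1.23, 1.28 and 1.42. Both ratios were higher in 3 of 3 LGK-974 mice than in every DMSO mouse, by 0.82 and 0.70 (log2). The DMSO mice lay close together in both. The ratio of Id2 to Id3 overlapped between the groups, with a difference of 0.12.

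**Figure D3:**
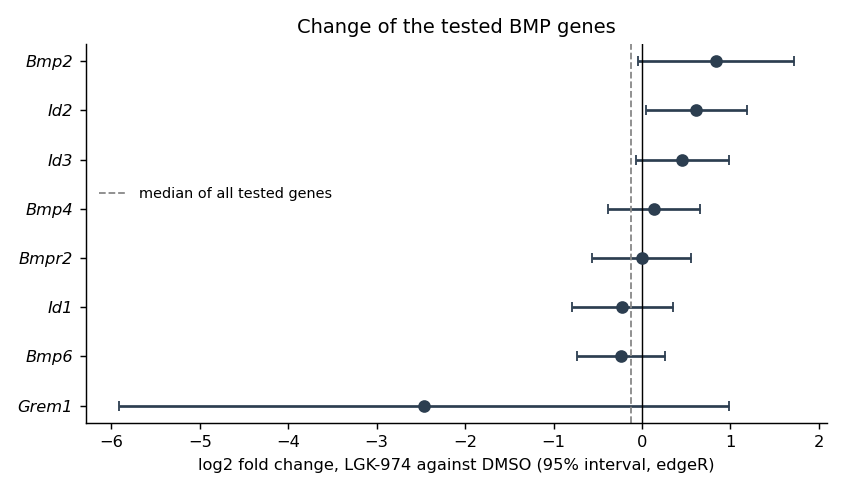
Log2 difference, LGK-974 minus DMSO (x axis), for the 8 tested BMP genes, with 95% intervals from edgeR. The dashed line is the median of all tested genes, −0.13. The interval lies above 0 for Id2 alone, Bmp2 and Id3 reach just below 0, and the interval of Grem1 spans from −5.91 to 0.99.

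Markers of the cell types that infarct tissue can hold were read in the same libraries. Of 11 monocyte and macrophage markers 10 were higher at an unadjusted p-value under 0.05, with a summed level of 481 to 640 CPM with LGK-974 and 214 to 302 with DMSO. Of 10 fibroblast markers 4 were higher, with sums of 3491 to 5993 and 1709 to 2524 CPM. These 4 were the matrix genes Col1a1, Col1a2, Col3a1 and Postn, at log2 fold changes of 1.07 to 1.56. Tcf21 (0.59) was also higher without overlap but did not pass. Lum (0.49), Dpt (0.39), Pdgfra (0.13), Dcn (0.0054) and Fap (−0.21) overlapped between the groups. The 10 endothelial markers held 0 of either direction, with sums of 563 to 631 and 492 to 683 CPM. Of the 12 cardiomyocyte markers 1, Actc1, was higher and 11 had a log2 fold change below 0, with sums of 42768 to 60104 and 48081 to 66684 CPM. Of 7 T cell markers 6 and of 6 epicardial markers 5 had a log2 fold change below 0, and 0 passed. Among 5 tested neutrophil markers 1, Cxcr2, was lower, and 0 of 7 smooth muscle and pericyte markers passed. The sums of these lists overlapped between the groups, and except for smooth muscle were highest in DMSO replicate 1. The sums of the macrophage and fibroblast markers thus did not overlap between the groups, as in Bmp2, Id2 and Id3, and their part in the values of these genes was not tested.

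The genes with the profiles most like each member over the 6 libraries were found by the root mean square difference of mean-centred log2 CPM, among 15525 genes with a mean of at least 1 CPM. For Bmp2 these were Cd276 and Cd52 (0.0693 and 0.0998), for Id2 Ubtd2 and Maged2 (0.0949 and 0.113), and for Id3 Lamp1 and Ctsd (0.0338 and 0.0554). For Id1 they were Actn2 and Trim55 (0.0442 and 0.0482), for Bmpr2 Serinc1 and Cavin4 (0.0268 and 0.0601), for Bmp6 Mapre3 and Tcf7l1 (0.0405 and 0.0477), and for Bmp4 Commd8 and Tatdn1 (0.0397 and 0.0423). The nearest genes to Grem1 were much farther away, AC125149.3 and the olfactory receptor Olfr837 (0.607 and 0.628). The spread of the members about their own mean on this scale ran from 0.170 for Bmp4 to 1.97 for Grem1.

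The rest of the pathway was read through 66 further genes in 7 lists, of which 60 were tested. At an unadjusted p-value under 0.05, 4 were higher and 3 lower with LGK-974 (11.7% of those tested, with 13.4% among all tested genes), and 0 did so after adjustment by edgeR. Their median log2 fold change was −0.04. By DESeq2 on the same genes 9 had an unadjusted p-value under 0.05, where 17.5% of all genes did.

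Among 12 other BMP and GDF ligands, 9 were tested, 1 higher and 2 lower, with a median log2 fold change of −0.62. Gdf10, also known as BMP3b, was at 3.35, 3.04 and 2.55 CPM with LGK-974 and 7.84, 5.15 and 6.24 with DMSO, without overlap. Its log2 fold change was −1.10 (standard error 0.263, adjusted p = 0.368 by edgeR), the smallest unadjusted p-value among all pathway genes, and −0.92 without DMSO replicate 1. By DESeq2 on the filtered genes its adjusted p-value was 0.0409, the lowest of 18 alternatives, which reached up to 0.772. Bmp8b was at 1.64, 1.25 and 1.44 CPM with LGK-974 and 6.18, 3.60 and 2.04 with DMSO, also without overlap (log2 fold change −1.45, standard error 0.451, adjusted p = 0.368 by edgeR, and −0.94 without DMSO replicate 1, its highest library). Gdf6 was higher with LGK-974 in the mean, at 5.20 ± 1.45 against 2.58 ± 1.01 CPM (SD, n = 3 each), with overlap (log2 fold change 1.01, standard error 0.381, adjusted p = 0.368 by edgeR). Its unadjusted p-value was above 0.05 without LGK-974 replicate 1 or 3. Per kb, Gdf6 lay at 0.778 times the median of the sensory receptor genes in DMSO replicate 1. Bmp15, Gdf2 and Gdf5 had too few counts to be tested.

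All 11 other receptors and co-receptors were tested, 1 higher and 1 lower, with a median of −0.04. Acvrl1 encodes ALK1, the endothelial type I receptor of BMP9 and BMP10, and was at 25.1, 24.3 and 26.5 CPM with LGK-974 and 14.2, 22.8 and 18.0 with DMSO, without overlap (log2 fold change 0.47, standard error 0.191, adjusted p = 0.368 by edgeR). Its unadjusted p-value was under 0.05 in 1 of the 6 fits with a mouse left out, that without DMSO replicate 2, and the log2 fold change was 0.33 without DMSO replicate 1. Acvr2b, a type II receptor for activins and BMPs, was at 1.32, 1.59 and 2.29 CPM with LGK-974 and at 3.24, 3.19 and 3.91 with DMSO. It was lower without overlap (log2 fold change −0.99, standard error 0.347, adjusted p = 0.368 by edgeR). Its unadjusted p-value was above 0.05 without LGK-974 replicate 1 or 2 or DMSO replicate 3. With the background subtracted or with total counts its groups overlapped. The main type I receptor gene of BMP2 and BMP4, Bmpr1a, had means of 41.7 ± 4.97 and 36.4 ± 5.89 CPM (SD, n = 3 each) and did not pass the test.

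The 8 SMAD genes and SMAD ubiquitin ligases held 0 genes at an unadjusted p-value under 0.05, with a median of 0.22. The smallest p-value was that of Smurf2, a ligase that marks SMADs and receptors for degradation, at 41.9 ± 2.94 against 33.2 ± 5.06 CPM (SD, n = 3 each; log2 fold change 0.34, adjusted p = 0.376 by edgeR, and 0.52 without DMSO replicate 3). The inhibitory Smad6 and Smad7, which BMP signals also induce, had log2 fold changes of −0.13 (adjusted p = 0.737) and 0.33 (adjusted p = 0.497 by edgeR).

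Of 16 other extracellular antagonists and binding proteins 15 were tested, 2 higher and 0 lower, with a median of −0.09. Fstl1, a secreted glycoprotein of the follistatin family, was at 292, 213 and 317 CPM with LGK-974 and 145, 178 and 152 with DMSO, without overlap. Its log2 fold change was 0.79 (standard error 0.212, adjusted p = 0.368 by edgeR), and 0.73 to 1.01 with any one mouse left out. By DESeq2 on the filtered genes Fstl1 had an adjusted p-value of 0.0132, the lowest of its 18 alternatives, which reached up to 0.772. Bmper, a secreted BMP-binding regulator of endothelial cells, was at 7.75, 7.18 and 11.4 CPM against 6.11, 5.46 and 5.82, apart as well (log2 fold change 0.60, standard error 0.235, adjusted p = 0.368 by edgeR), with an unadjusted p-value above 0.05 without LGK-974 replicate 1 or 3 or DMSO replicate 2. The antagonist Nog had 0 to 11 counts per library and was not tested, and Chrd was at 0.852 ± 0.473 and 1.15 ± 0.504 CPM (SD, n = 3 each).

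The 6 proteases that process ligands or chordin held 0 genes at an unadjusted p-value under 0.05, Bmp1 having the smallest (log2 fold change 0.57, adjusted p = 0.369 by edgeR). Bmp1 was at 0.34 without LGK-974 replicate 3 and at 0.80 without LGK-974 replicate 2, there with an unadjusted p-value under 0.05. Among 10 other responses 8 were tested and 0 passed, Msx2 having the smallest p-value (log2 fold change −1.03, adjusted p = 0.423). Without DMSO replicate 1, its highest library, Msx2 was at −0.41, and without DMSO replicate 2 at −1.39 with an unadjusted p-value under 0.05. Id4, the remaining Id gene, was at 0.766 ± 0.229 and 1.37 ± 0.463 CPM (SD, n = 3 each; log2 fold change −0.83, adjusted p = 0.475 by edgeR). The 3 genes of E proteins, which ID proteins bind, had log2 fold changes of 0.12 to 0.26 and 0 passed, the smallest p-value being that of Tcf12 (adjusted p = 0.594 by edgeR), whose groups were apart. Its log2 fold change of 0.16 was 0.085 without DMSO replicate 1 and 0.32 without DMSO replicate 3.

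**Figure D4:**
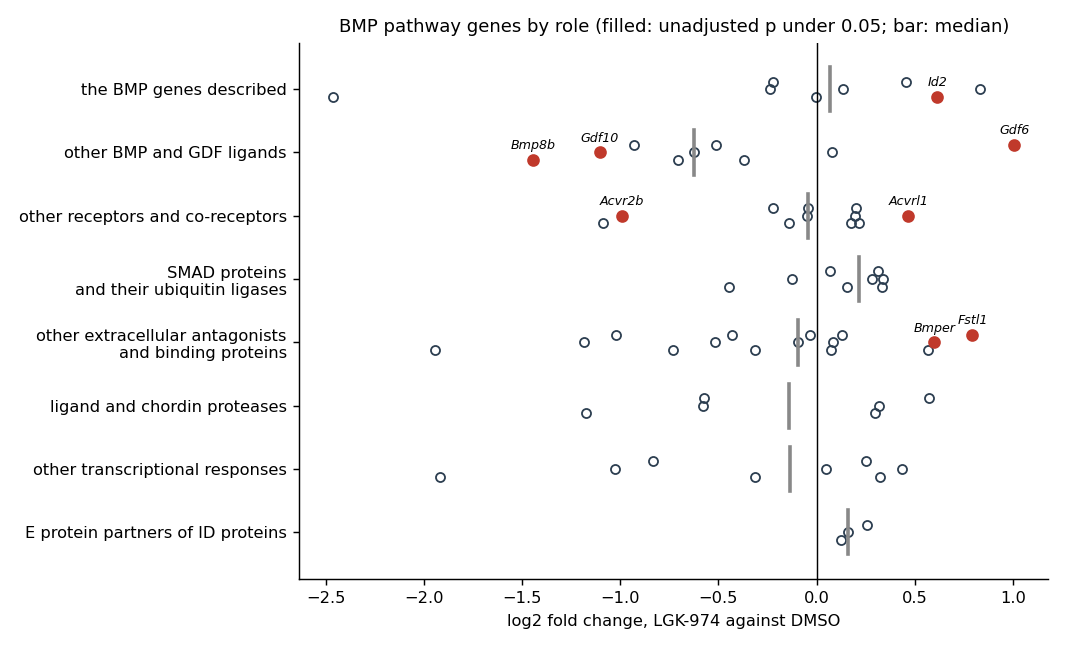
Log2 difference, LGK-974 minus DMSO (x axis), for the tested BMP pathway genes in 8 lists by role (rows). Filled points have an unadjusted p-value under 0.05, open points do not, and grey bars are the medians of the lists. Named points lie on both sides of 0 among the ligands and receptors, and above 0 among the antagonists and in Id2.

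The direction of the single members was followed through 12 other settings and with each library left out. Bmp2, Id2 and Id3 stayed above 0 in all 18 fits, from 0.56 to 1.73, 0.38 to 0.82 and 0.27 to 0.70 on the log2 scale. Their groups were apart with all libraries, so leaving 1 library out could turn the sign only through the rescaling. The other settings refit the same libraries, so the 18 fits are not independent of each other. Id1 stayed below 0 in all 18, from −0.37 to −0.04. With libraries scaled to total counts alone, the groups of Bmp2, Id2 and Id3 overlapped (8.41% of all genes were apart), and the median of all genes was 0.08 in place of −0.13. Of the pathway genes described above as apart, Acvrl1, Acvr2b, Fstl1 and Tcf12 overlapped there too, while Gdf10, Bmp8b and Bmper did not. Without LGK-974 replicate 1 or DMSO replicate 1, 0 members had an unadjusted p-value under 0.05, as had 8.13% and 11.0% of all genes, and without DMSO replicate 3 there were 4, with 23.2% of all genes. The groups were apart in 5 members without DMSO replicate 1 (28.8% of all genes) and in 5 without DMSO replicate 3 (46.2%).

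**Figure D5:**
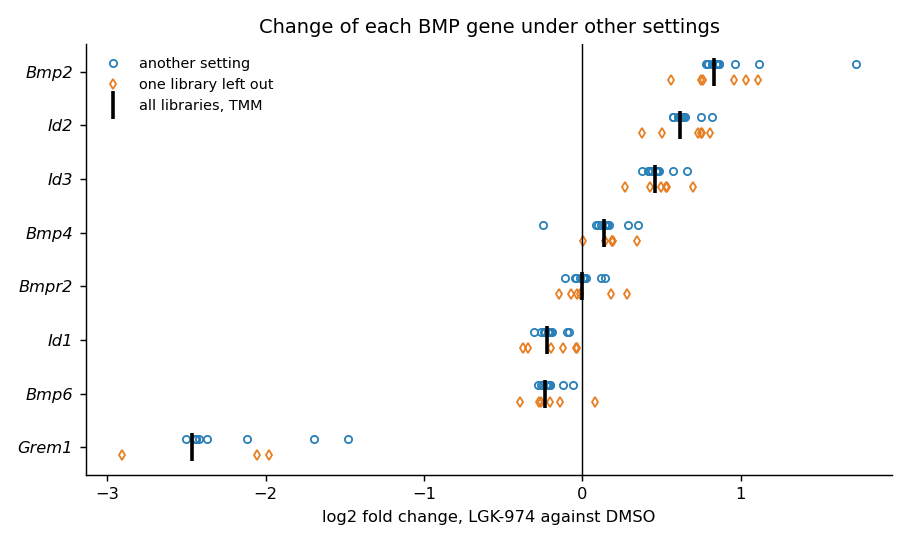
Log2 difference, LGK-974 minus DMSO (x axis), of the 8 tested BMP genes with all libraries and TMM scaling (black bars), under other settings (blue circles) and with one library left out (orange diamonds). Bmp2, Id2 and Id3 lie right of 0 throughout, Id1 and Grem1 left of 0, and Bmp4, Bmp6 and Bmpr2 lie on both sides.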

How the data were processed

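Infarct tissue of 6 mice was sequenced, 3 per group, with groups and replicate numbers taken from the sample labels. The authors quantified reads with Kallisto on an Ensembl index of GRCm38 and deposited an estimated count, a TPM value and an effective length for each of 118489 transcripts. Its version and any read trimming were not given in the sources used here. The methods name both ribosomal depletion and a capture kit, so unspliced and rare RNA may be read unevenly.

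Transcripts were joined to genes by GENCODE M21 (98.6% matched) and the authors' estimated counts of each gene's transcripts were added up, then rounded. The split of a read between similar transcripts was kept as deposited. Genes reaching 10 counts in 3 or more libraries entered edgeR 4.0.16 (R 4.3.3; TMM, quasi-likelihood, treatment as the only factor), with limma 3.58.1 (voom) as an alternative on the same genes and DESeq2 1.42.0 both on all 34257 genes with counts and, added after seeing the data, on the filtered genes. Standard errors were taken from the F statistic. The deposited TPM values of the authors served to compare levels between genes and for one alternative. The tests were tested on simulated data.

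The members, lists and tests were chosen with earlier results of these data known. Named were all members, list genes at an unadjusted p-value under 0.05 or else the smallest, and the 2 most alike genes per member. Others named in the text (Bmpr1a, Smad6, Smad7, Nog, Chrd, Id4 and single marker genes) were chosen after their values were seen, as were the ratios between members.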

Additional observations from a re-analysis of the deposited data

How the results depend on the processing

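The members' medians, directions and counts rest on 3 mice per group, and for Bmp2, Bmp10 and Grem1 also on few counts. At an adjusted p-value under 0.05 there were 0 genes with all libraries, 337 by DESeq2 on the same genes, 289 by DESeq2 with no filter on low counts and 1206 by edgeR with none. At an unadjusted one, there were 2699, 3510, 4477 and 4790. Members under an unadjusted 0.05 were 1 with all libraries, 2 with total counts or unfiltered DESeq2, which also tests Bmp10, 4 without the filter, and 0 with counts scaled from TPM or with the background subtracted. Members with groups apart were 3 (18.0% of all tested genes), but 0 with total counts (8.41%). They were 1 with counts scaled from TPM (16.5%) and 2 with the background subtracted (21.3%), where Id2 overlapped. Other pathway genes under an unadjusted 0.05 were 7, and 4 with the background subtracted. With one library left out the counts ran from 0 to 2 genes after adjustment (2 without DMSO replicate 1), from 821 (without LGK-974 replicate 3) to 4628 (without DMSO replicate 3) before it, from 0 to 4 members before adjustment, from 3 to 5 members apart, and from 3 (without LGK-974 replicate 1) to 10 other pathway genes (without DMSO replicate 3). In these fits 4.16 to 23.2% of all tested genes were under an unadjusted 0.05, and 22.7 to 46.2% were apart.

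The sign of Bmpr2 turned from −0.0039 to 0.0126 with RLE scaling, 0.14 with total counts, 0.0126 and 0.0202 by DESeq2 with and without the filter, 0.0098 by limma-voom, 0.12 without the filter, 0.0072 without mitochondrial genes, and ran from −0.15 to 0.28 with one library left out. Bmp4 turned to −0.25 with counts scaled from TPM, and Bmp6 ran from −0.40 to 0.079 with one library left out. The cause of these changes was not tested. Grem1 gave no value in 6 alternatives, in which too few of its counts were left.

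Correlations of the deviations of mice with the same replicate number were 0.475, −0.0482 and 0.391, and those with different numbers ran from −0.518 to 0.1. The labels do not say that the numbers pair the mice, and the main test does not use them. Whether the numbers mark a shared factor was not tested. Blocking on that number left 0 genes after adjustment. Under an unadjusted 0.05 there were then 3312 genes (16.5%), 1 member, Id3 in place of Id2, and 8 other pathway genes. Bmpr2 was at 0.00995 in this fit. Mice of number 1 and of number 3 correlated best with their own number, those of number 2 did not.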
